A study of Mus musculus with 2 samples.

Results

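Matrix metalloproteinases (Mmp), Adam and Adamts proteases, the Adamtsl proteins related to them and the Timp inhibitors were examined in mouse osteoclast cultures with and without Dnmt3a. The members were all genes whose symbol begins with Mmp, Adam, Adamts, Adamtsl or Timp followed by a digit and that a non-control probe on both arrays names through its RefSeq accession. There were 83 such genes, on 110 probes, of 20654 genes named on the arrays. They comprised 34 Adam, 22 Mmp, 19 Adamts, 4 Adamtsl and 4 Timp genes. The rule itself uses names alone and no measured value, though it was set with earlier results of these data known.

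The study compared 2 samples, each on 1 single-colour (Cy3) Agilent array: Dnmt3a knockout cells and wild type cells, both from female C57BL/6 mice. Per the labels, marrow cells that had not adhered were grown with macrophage colony-stimulating factor (M-CSF), and the cells that then attached were treated further with M-CSF together with RANKL, which induces osteoclasts. The knockout allele, any Cre driver, the mice's age and whether marrow was pooled are not given in the sources used here. With 1 array per genotype there was no replicate, so the comparison is descriptive and without p-values.

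Mmp genes encode zinc-dependent proteases that cut collagens, gelatins and other matrix proteins, and some activate each other. Many Adam genes encode membrane proteases that release the outer part of surface proteins such as cytokines and receptors, while other Adam proteins lack the catalytic site and act in adhesion or fertilisation. Adamts genes encode secreted proteases that trim procollagens or cut proteoglycans, Adamtsl proteins share their accessory domains without the protease, and Timp proteins bind and inhibit Mmp and some Adam and Adamts enzymes. Osteoclasts are known for high Mmp9 and for Mmp14, and the stromal and osteoblast lineage for Mmp2 and Mmp13.

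The measured quantity is the scanner software's processed signal of a spot, an intensity after background subtraction. The 75th percentile over 59305 non-control spots was 572 on the knockout array and 584 on the wild type array, and each array was divided by its own. Of these spots, 59.7% on the knockout array and 52.7% on the wild type array were well above background. Differences below are log2 values, knockout minus wild type, and the error beside them is the scanner software's error of the spots. It describes how well a spot was read and says nothing of how cultures or mice vary. A gene was called higher or lower when it differed by at least 1.5-fold, a threshold of size and not of significance. Dnmt3a itself gave a signal of 1822 on the knockout array and 7042 on the wild type array, a difference of -1.92 ± 0.20. The osteoclast markers fixed as a check (9 of 9, among them Acp5 and Ctsk) were above background on both arrays. In such bulk RNA, fewer cells of a type and less RNA per cell cannot be told apart.

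Of the 83 genes, 34 were well above background on both arrays, 13 on the knockout array only and 2 on the wild type array only, and 34 on neither. Of 7 measured Adamts genes, 5 were lower by at least 1.5-fold in the knockout (71.4%), as was the collagenase Mmp13. The neutrophil collagenase Mmp8 and the membrane protease Adam15 were higher. In all, 6 of the 34 (17.6%) were called lower, against 4.69% of all 13479 measured genes, and 2 (5.88%) were called higher, against 5.82% of all. Of the 12 members at or above the median level, Adamts2 was called lower, against 2.4% of all genes at such levels, and Mmp8 and Adam15 higher, against 4.79%. Past 2-fold there was Mmp8 upward and 0 genes downward, where 0.824% and 0.727% of all measured genes lay past 2-fold in these directions. The median difference was -0.85 for Adamts, -0.41 for Mmp, -0.15 for Timp and 0.09 for Adam, and the single measured Adamtsl gene was at -0.42. The median of all measured genes was 0.01.

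All of this is measured against the bulk of the transcripts on each array. Scaling to 8 spike-in probes lowers every difference by 0.53 (single spike-in probes ranged from 0.30 to 0.72), and then 0 members were called higher and 19 lower. Scaling each array to its median moves the median of all measured genes to -0.18 and gave 1 higher and 13 lower, and quantile normalization 1 and 7. The upward share of the members' calls was thus 25% as reported, 12.5% after quantile normalization, 7.14% with median scaling and 0% with spike-in scaling. For all genes the shares in that order were 55.4%, 44.5%, 19.0% and 1.20%.

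**Figure D1:**
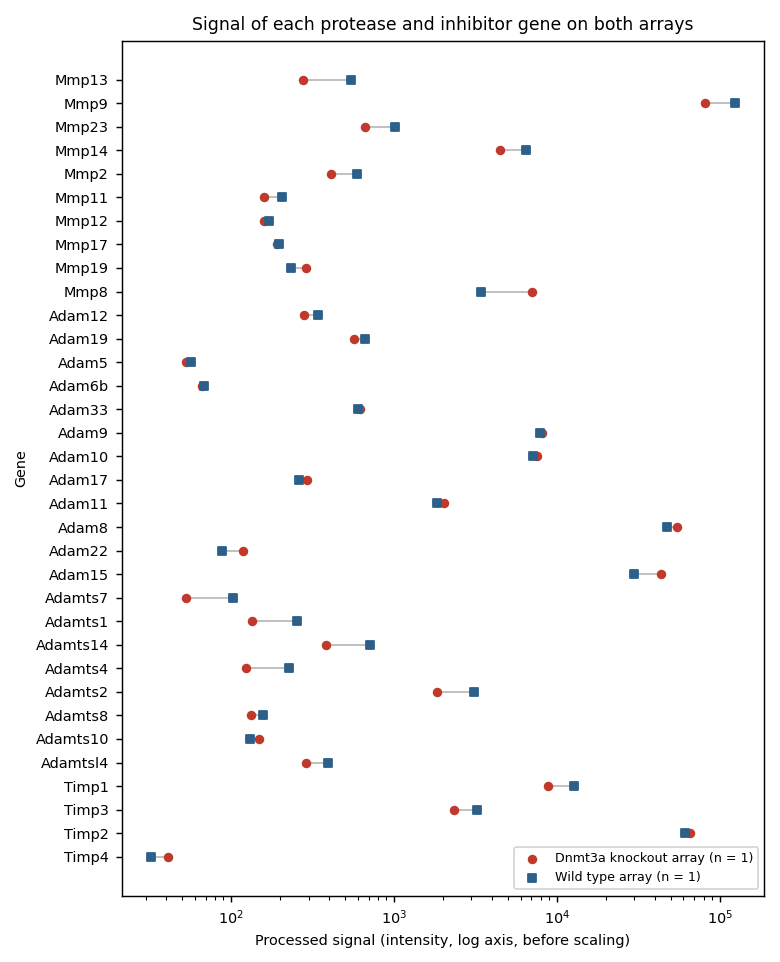
Processed signal (horizontal log axis, intensity before scaling) of the 34 genes measured on both arrays, with the Dnmt3a knockout array as circles and the wild type array as squares, 1 array each. The grey line joins the 2 values of a gene: it is long for Mmp8, with the knockout circle on the right, and for Mmp13 and 5 Adamts genes, with the circle on the left. Signals of different genes come from different probes and are not compared.

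Among the collagenases, which cut fibrillar collagen, the data went in opposite directions. Mmp8, which neutrophils store in their granules, had a signal of 7075 on the knockout array and 3408 on the wild type array. It was the only member past 2-fold, 2.12-fold higher (1.08 ± 0.20, 1 probe). With median scaling its difference was 0.89, and with spike-in scaling 0.55, short of the threshold. Mmp13, the collagenase of osteoblasts and hypertrophic chondrocytes, had a signal of 279 on the knockout array and 544 on the wild type array, 1.91-fold lower (-0.93 ± 0.21, 1 probe). The other mouse collagenase genes, Mmp1a and Mmp1b, were above background on neither array.

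Beside Mmp8, 9 of 9 measured neutrophil markers lay above 0, where 51.9% of all measured genes did, with a median of 0.49, from Elane (0.15 ± 0.20, within the scanner error) to Retnlg (0.70). Retnlg was the only one of the 9 called higher (11.1%, against 5.82% of all genes). Their summed scaled signal was 345 on the knockout array and 261 on the wild type array, in units of each array's 75th percentile. Beside Mmp13, 7 of 9 stromal and osteoblast markers lay below 0, with a median of -0.72, 6 of them were called lower and 1 higher (66.7% and 11.1%, against 4.69% and 5.82% of all genes), and the summed signal was 169 on the knockout array and 254 on the wild type array. Runx2, the transcription factor of osteoblasts, was above background on neither array. The part of these cells in the values of Mmp8 and Mmp13 was not tested.

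Mmp8 and Mmp13 belong to a row of 10 Mmp genes that follow each other in RefSeq's gene order on mouse chromosome 9, interrupted only by loci with clone or model names: Mmp13, Mmp12, Mmp1b, Mmp3, Mmp1a, Mmp10, Mmp8, Mmp27, Mmp20 and Mmp7. Besides Mmp8 and Mmp13, Mmp12 was measured on both arrays (-0.08 ± 0.22), Mmp27 has no named probe here, and the other 6 were above background on neither array. The row therefore held a gene that was higher, a gene that was lower and a gene that differed by less than the scanner error.

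The promoters of this row are shown because AP-1, the Fos and Jun dimer that RANKL induces in osteoclast precursors, is known to act on several of them. RefSeq windows on GRCm38.p6, from 250 bases before to 50 bases after a transcript start, were searched on both strands for TGAGTCA and TGACTCA, which are each other's reverse complement. Of the 10 genes, 7 had the motif, 35 to 93 bases upstream of the start, while Mmp8, Mmp27 and Mmp20 had none in the window. Of all 32851 windows, 5.20% held it, as did 10 of the 59 windows of the members (16.9%). Of these 10, 7 belong to the row and the others to Adam19, Adam1b and Adam29. The whole windows of the 3 genes measured on both arrays follow, 5′ to 3′ along the gene, with the motif in capitals. Mmp8 (chr9:7558179-7558478, plus strand) has no capitals. Mmp13 is at chr9:7272264-7272563 and Mmp12 at chr9:7347124-7347423, both on the plus strand. A further window of Mmp12 did not hold the motif.
Mmp8: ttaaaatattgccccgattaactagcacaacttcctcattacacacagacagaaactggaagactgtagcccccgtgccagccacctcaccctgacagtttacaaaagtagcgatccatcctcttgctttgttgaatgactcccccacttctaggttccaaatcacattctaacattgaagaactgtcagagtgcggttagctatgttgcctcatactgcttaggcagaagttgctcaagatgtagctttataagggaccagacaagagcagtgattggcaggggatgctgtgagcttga
Mmp13: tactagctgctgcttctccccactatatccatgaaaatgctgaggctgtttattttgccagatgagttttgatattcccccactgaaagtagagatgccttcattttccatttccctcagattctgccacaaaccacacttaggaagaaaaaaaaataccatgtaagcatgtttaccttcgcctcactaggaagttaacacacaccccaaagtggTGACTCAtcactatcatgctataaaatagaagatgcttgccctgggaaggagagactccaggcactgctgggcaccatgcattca
Mmp12: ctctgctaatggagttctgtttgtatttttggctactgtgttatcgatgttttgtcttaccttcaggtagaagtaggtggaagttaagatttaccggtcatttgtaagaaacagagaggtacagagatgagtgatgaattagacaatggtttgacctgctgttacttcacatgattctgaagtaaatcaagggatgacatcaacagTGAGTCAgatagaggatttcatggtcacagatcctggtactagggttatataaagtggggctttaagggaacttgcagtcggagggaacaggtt

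For the genes of the row that were above background on neither array and held the motif, 41 bases around it follow. Each stretch was cut around the motif, so the motif's place in it is fixed by construction. The motif lay 46 bases upstream of the start in Mmp3, 63 in Mmp10 and Mmp7, 73 in Mmp1a and 93 in Mmp1b. Mmp1b reads along the minus strand and the others along the plus strand.
Mmp1b (chr9:7388096-7388136): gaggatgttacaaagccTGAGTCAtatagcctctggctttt
Mmp3 (chr9:7445759-7445799): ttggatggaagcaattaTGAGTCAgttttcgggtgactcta
Mmp1a (chr9:7464051-7464091): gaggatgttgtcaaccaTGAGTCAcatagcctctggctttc
Mmp10 (chr9:7502262-7502302): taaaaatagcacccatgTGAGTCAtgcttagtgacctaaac
Mmp7 (chr9:7692010-7692050): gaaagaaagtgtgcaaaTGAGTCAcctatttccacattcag
The motif reads TGAGTCA in all of them and in Mmp12, and TGACTCA in Mmp13. In these windows the motif stood both in a gene called lower (Mmp13) and in a gene within the scanner error (Mmp12), and it was missing from the window of the gene called higher (Mmp8). A match of letters is no measurement of binding.

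The gelatinases cut denatured collagen and basement membrane collagen. Mmp9, the gelatinase of osteoclasts, was read by 10 spots of 1 probe. Their lowest, median and highest signals were 76412, 82114 and 84042 on the knockout array and 121438, 124382 and 129249 on the wild type array. The spots of the arrays did not overlap, which shows only how well this probe was read and nothing of how cultures vary. The difference was -0.58, with an SD of 0.05 between the 10 spots, and lay just short of the threshold. It was past the threshold after quantile normalization (-0.68) and with median scaling (-0.78). The 2 spots in the top rows of the array, a strip where more genes pass the threshold in either direction than elsewhere (12.3% against 9.6%), gave -0.59 and the other 8 gave -0.58. Mmp2, the gelatinase of stromal cells, had a signal of 415 on the knockout array and 594 on the wild type array (-0.49 ± 0.21). Its difference exceeded the scanner error and fell short of 1.5-fold.

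The osteoclast markers lay on the same side as Mmp9: 9 of 9 were below 0, 5 of them called lower (55.6%, against 4.69% of all genes), with a median of -0.62, from Tnfrsf11a (-1.20), the receptor of RANKL, to Acp5 (0.00). Their summed scaled signal was 1576 on the knockout array and 1761 on the wild type array. Their part in the difference of Mmp9 was not tested.

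Of the membrane-type Mmp genes, Mmp14, which activates the Mmp2 proenzyme with the help of Timp2, had a signal of 4483 on the knockout array and 6488 on the wild type array (-0.50 ± 0.20). Mmp17, which is anchored in the membrane by a lipid, had a signal of 193 on the knockout array and 197 on the wild type array (0.00 ± 0.21). Mmp24 was above background on the knockout array only (signal 37.7 against 23.7 on the wild type array). Its bound was 1.49-fold higher, which is not strict because brighter signals could miss the cutoff. The other probe of Mmp24 was above background on neither array. The remaining membrane-type genes Mmp15, Mmp16 and Mmp25 were above background on neither.

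The other Mmp genes measured on both arrays were Mmp23, Mmp11, Mmp12 and Mmp19. Mmp23 had a signal of 670 on the knockout array and 1012 on the wild type array (-0.57 ± 0.20), close to the threshold. Mmp11, also called stromelysin 3, was at -0.33 ± 0.21, and its other probe gave -0.42. Mmp12, the elastase of macrophages, had a signal of 159 on the knockout array and 172 on the wild type array, within the scanner error. Mmp19 was, beside Mmp8, the other Mmp gene above 0, with a signal of 288 on the knockout array and 234 on the wild type array (0.33 ± 0.21). Beside Mmp12, 6 of 6 measured macrophage markers lay above 0, 5 of them called higher (83.3%, against 5.82% of all genes), with a median of 0.84, and Cd163 was above background on neither array. In all, 8 of the 10 measured Mmp genes lay below 0 (80.0%, where 48.1% of all measured genes did).

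**Figure D2:**
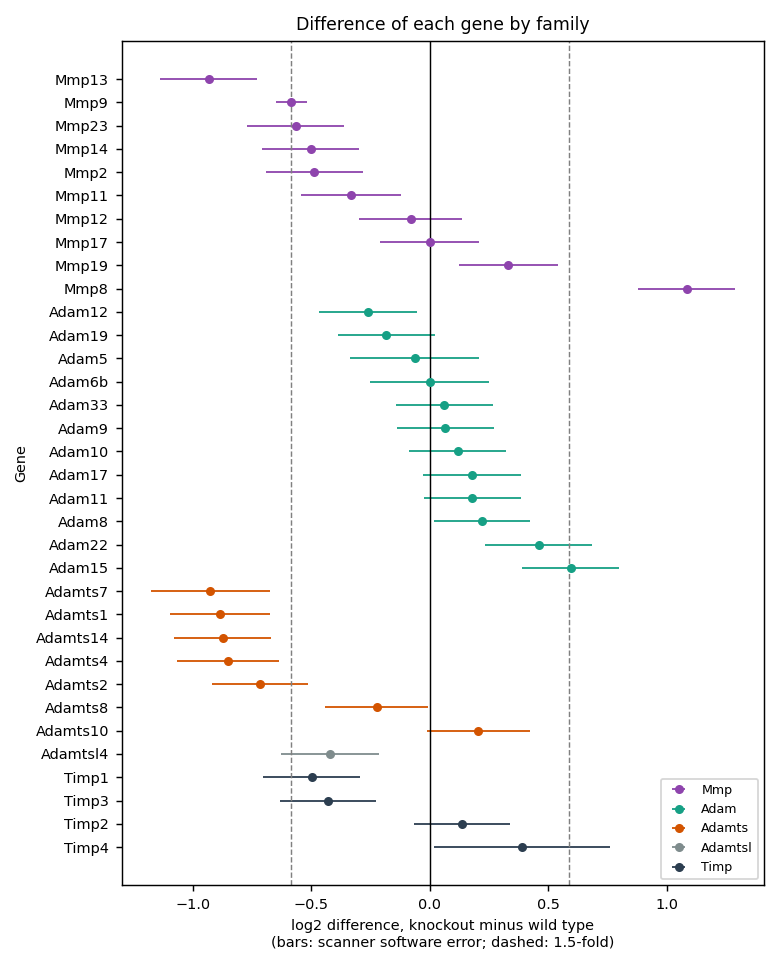
Log2 difference, knockout minus wild type (horizontal axis), of the 34 genes measured on both arrays, coloured by family and ordered by value within each. Bars are the scanner software's error, dashed lines mark 1.5-fold, and the cluster of 5 Adamts genes between -0.93 and -0.72 stands left of all Adam genes.

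Of the Adamts genes, 5 were called lower, with differences between -0.93 and -0.72, while Adamts8 and Adamts10 were not called. Adamts7, a protease of cartilage oligomeric matrix protein, had a signal of 53.3 on the knockout array and 103 on the wild type array (-0.93 ± 0.25). Adamts1, which cuts versican and aggrecan, had 134 on the knockout array and 253 on the wild type array (-0.89 ± 0.21). Adamts4, an aggrecanase, had 123 on the knockout array and 227 on the wild type array (-0.85 ± 0.21). Each of them has a single probe here.

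The procollagen aminopropeptidases, which trim the amino end of fibrillar procollagens, were lower as well. Adamts14 had a signal of 383 on the knockout array and 717 on the wild type array (-0.87 ± 0.21). Its other probe was near the cutoff, above background on the knockout array only, with a signal of 25.1 there and 31.8 on the wild type array (-0.31). Adamts2 had 1847 on the knockout array and 3099 on the wild type array (-0.72 ± 0.20). A further probe of Adamts2, near background, gave -0.29, and the mean of both probes was -0.50, short of the threshold. Adamts3, the third enzyme of this group, was above background on neither array.

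Adamts8 (-0.22 ± 0.22) and Adamts10 (0.20 ± 0.22), an enzyme linked to fibrillin microfibrils, were not called. Adamts10 was the only measured Adamts gene above 0. The calls of the dimmer genes depended on the background correction: with normexp, Adamts7 was at -0.48 and Adamts4 at -0.56, both short of the threshold, while Adamts1, Adamts14 and Adamts2 stayed past it. The spot of Adamts7 lies in the top strip of the array named above. Adamtsl4, which binds fibrillin, had a signal of 289 on the knockout array and 396 on the wild type array (-0.42 ± 0.21). Adamtsl1, Adamtsl2 and Adamtsl3 were above background on neither array.

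Marrow stromal cells and osteoblasts are a known source of procollagen-processing Adamts enzymes, and most of the stromal markers given above lay on the same side. Alpl (-0.98), Cxcl12 (-0.98), Col3a1 (-0.95), Pdgfrb (-0.87), Col1a1 (-0.72) and Col1a2 (-0.70) were all called lower. Bglap2 (0.84 ± 0.30), near background, was higher, and Dcn (0.03) lay near 0. The part of stromal cells in the Adamts values was not tested.

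Promoter windows of the Adamts genes are shown for their CpG content, since Dnmt3a methylates the cytosine of CpG. RefSeq windows were found for 21 of the 34 measured genes, and these 25 windows held 0 to 44 CpG, with a median of 18. The median over all windows was 7, but these include genes not measured on the arrays, so the sets are unlike. Both CpG-rich and CpG-poor windows occurred among the genes called lower: Adamts14 had 44 CpG, Adamts2 41, Adamts1 18 and Mmp13 1. Of the genes called higher, Adam15 had 25 and Mmp8 4. The windows of Adamts1 (chr16:85803064-85803363) and Adamts14 (chr10:61273370-61273669), both on the minus strand of GRCm38.p6, follow 5′ to 3′ along the gene with every CpG in capitals. Methylation was not measured here.
Adamts1: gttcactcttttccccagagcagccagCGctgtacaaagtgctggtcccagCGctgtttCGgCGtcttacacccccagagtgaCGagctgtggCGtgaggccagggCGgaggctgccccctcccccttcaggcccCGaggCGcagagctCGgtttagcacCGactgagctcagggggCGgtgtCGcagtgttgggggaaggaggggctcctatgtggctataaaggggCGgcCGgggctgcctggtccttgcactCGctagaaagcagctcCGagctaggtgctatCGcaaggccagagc
Adamts14: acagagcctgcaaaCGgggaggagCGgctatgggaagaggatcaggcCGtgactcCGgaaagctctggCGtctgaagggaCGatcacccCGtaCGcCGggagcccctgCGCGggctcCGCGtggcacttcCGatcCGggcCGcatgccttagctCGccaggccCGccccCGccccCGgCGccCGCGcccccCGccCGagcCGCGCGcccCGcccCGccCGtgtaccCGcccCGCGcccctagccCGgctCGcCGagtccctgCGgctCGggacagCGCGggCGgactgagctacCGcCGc

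The measured Adam genes showed small differences. Of those above 0, only Adam15 stayed above with spike-in scaling, while those below 0 stayed below under each scaling. Of the 12, 8 lay above 0 as reported (median 0.09), 3 with median scaling (median -0.10) and 1 with spike-in scaling (median -0.44). Adam15, which has a catalytic site and can bind integrins, was the only one called, with a signal of 43834 on the knockout array and 29664 on the wild type array (0.59 ± 0.20, 1.51-fold higher, 1 probe). It lay just past the threshold, its spot lies in that same top strip, and the call was lost after quantile normalization (0.55), with median scaling (0.40) and with spike-in scaling (0.06). Adam8, which is high in osteoclasts and granulocytes, had a signal of 54367 on the knockout array and 47675 on the wild type array (0.22 ± 0.20).

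The main sheddases differed by less than the scanner error. Adam10, which cleaves Notch receptors, had a signal of 7572 on the knockout array and 7130 on the wild type array (0.12 ± 0.20). Adam17, the enzyme that releases Tnf, had 292 on the knockout array and 263 on the wild type array (0.18 ± 0.21), and its other probe gave 0.08. Adam9 was at 0.07 ± 0.20. The meltrins Adam12 (-0.26 ± 0.21) and Adam19 (-0.18 ± 0.20) lay below 0, and Adam33 was at 0.06 (its other probe 0.15).

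Of the Adam proteins without a catalytic site, Adam22, a receptor of the secreted protein Lgi1 in neurons, had a signal of 119 on the knockout array and 88.6 on the wild type array (0.46 ± 0.23). Adam11 was at 0.18 ± 0.20. The dim genes Adam5 (-0.06 ± 0.27) and Adam6b (0.00 ± 0.25), which belong to the testis-expressed group, did not differ beyond the scanner error. Over the 12 measured Adam genes, 4 differed by more than the scanner error, where 6140 of all 13479 measured genes did. The 5 Adamts genes called lower, a call that 4.69% of all measured genes had, lay below Adam12, the lowest Adam gene at -0.26. Adamts8 and Adamts10 lay within the range of the Adam genes, and the further probe of Adamts2, at -0.29, lay close to Adam12.

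**Figure D3:**
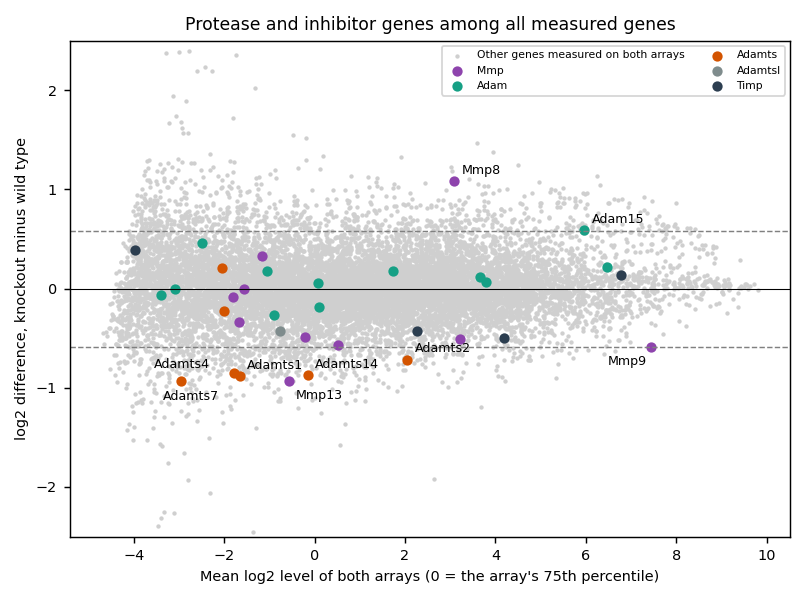
Log2 difference, knockout minus wild type (vertical axis), against the mean log2 level of both arrays (horizontal axis, 0 at the array's 75th percentile) for genes measured on both arrays, with the members in colour and other genes in grey. Dashed lines mark 1.5-fold. Mmp8, at 1.08, and the lower Adamts genes and Mmp13 lie outside them, and 10 other genes beyond the plotted range are not shown.

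Of the Timp inhibitors, all 4 were measured, 2 lay below 0 and 2 above (1 above with median scaling and 0 with spike-in scaling), and 0 were called. Timp1, which is induced by growth factors and cytokines and inhibits Mmp9 among others, had a signal of 8803 on the knockout array and 12694 on the wild type array (-0.50 ± 0.20). Timp3, which binds to matrix and inhibits Adam17 and aggrecanases, had 2355 on the knockout array and 3238 on the wild type array (-0.43 ± 0.20). Timp2 had 65743 on the knockout array and 61101 on the wild type array (0.14 ± 0.20, its other probe 0.26). Timp4, near background, was at 0.39 ± 0.37. Side by side, the inhibitor Timp1 was at -0.50 and the enzyme Mmp9, which it binds, at -0.58.

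Of the genes above background on 1 array only, 13 were so on the knockout array and 2 on the wild type array. The 13 are 26.5% of the 49 members that were not measured on both arrays, and 15.8% of all such genes were bright in the knockout alone. Over all named genes, 5.48% were bright in the knockout alone and 0.862% in wild type alone. The background cutoff was lower on the knockout array, whose lowest signal well above background was 17.7, against 25.8 on the wild type array. The 13 signals on the knockout array lay between 24.5 and 44.2, close to that cutoff. Of the 13, 9 were Adam genes: Adam1a, Adam3, Adam4, Adam18, Adam21, Adam23, Adam26a, Adam26b and Adam32, most of them known from testis. Adam3, a sperm surface protein, was the only one whose bound passed the threshold (signal 44.2 against 6.11 on the wild type array, bound 1.75-fold higher). Over all named genes, 1.17% had a bound past 1.5-fold in this direction. The other probe of Adam3 was above background on neither array. Above background on the wild type array only was Adam30 (signal 13.9 on the knockout array and 33.0 on the wild type array, bound 1.83-fold lower). So was Adamts13, which cuts von Willebrand factor (9.48 on the knockout array and 29.5 on the wild type array, bound 1.63-fold lower). The other probe of Adamts13 was above background on neither array. The bounds are not strict, since brighter signals could miss the cutoff. Adam26b missed it on the wild type array at 30.2, and Adam39 on the knockout array at 21.6.

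Lists of partner genes were examined as well. Of the regulators of these proteases, 23 were measured on both arrays, 14 below 0 and 9 above (median -0.05). Of them 0 were called higher and 3 lower (13.0%, against 4.69% of all genes). Of all 32 regulators, 4 were above background on the wild type array only and 1 on the knockout array only. Over all named genes, 0.862% and 5.48% were so. Among those called lower, the integrin chain Itgav, an anchor of podosomes, was at -1.12 (its other probe -0.58) and Itgb3 at -0.64 (its other probe -0.50). Lrp1, the endocytic receptor that clears Mmp and Timp proteins, was highest at 0.37 ± 0.20, followed by the urokinase receptor Plaur at 0.32. The iRhom gene Rhbdf2, which carries Adam17 to the surface in myeloid cells, was at 0.05, and its partner Frmd8 at 0.24. Furin, which removes the inhibitory part of many of these proteases, was at 0.03, and the Mmp inducer Bsg at -0.07.

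Among related proteases, 17 were measured, of which 1 was called higher (5.88%, against 5.82% of all genes) and 2 lower (11.8%, against 4.69%), with a median of 0.05. Bmp1, the procollagen carboxypropeptidase, was at -0.99 (its other probe -0.42), and the stromal protease Fap at -0.96. Both sit on the side of the procollagen-processing Adamts2 and Adamts14. The heparan sulfate cleaving enzyme Hpse was highest at 0.69 (its other probe 0.79). Ctsl, a lysosomal cysteine protease, was next at 0.45. Adamdec1, an Adam-like protease of macrophages, was above background on neither array.

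Surface proteins known to be released by Adam enzymes lay mostly above 0: 23 of 27 measured, where 51.9% of all measured genes did, with a median of 0.35. Of them 4 were called higher (14.8%, against 5.82% of all genes) and 1 lower (3.70%, against 4.69%). Siglec1, a receptor of macrophages, was highest at 0.997 (its other probe 0.85), followed by Il1r2 (0.67 ± 0.35, dim), Sorl1 (0.63) and Cd40 (0.60). The growth factor Hbegf (-0.71) and the chemokine Cx3cl1 (-0.58) were lowest. Matrix proteins cut by Mmp or Adamts enzymes lay mostly below 0: 20 of 25 measured (80.0%, where 48.1% of all measured genes did), with a median of -0.56. Of them 12 were called lower, against 4.69% of all genes, and 0 higher, against 5.82%. Col3a1 (-0.95) and the basement membrane protein Nid1 (-0.93) were lowest, and Comp (0.37 ± 0.24) and the proteoglycan Vcan (0.31, a further probe 0.44), which Adamts1 and Adamts4 cut, were highest. Of these genes, 5 (Col1a1, Col1a2, Col3a1, Sparc and Dcn) also serve as the stromal markers above.

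**Figure D4:**
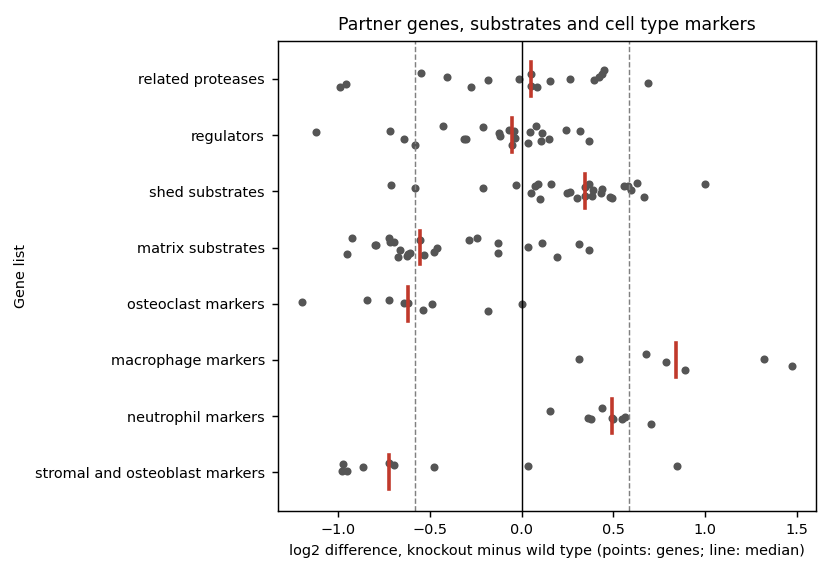
Log2 difference, knockout minus wild type (horizontal axis), of the measured genes of each partner and marker list (rows), 1 point per gene, with the list's median as a vertical line and 1.5-fold as dashed lines. The matrix substrates, osteoclast markers and stromal markers lie mostly left of 0, and the shed substrates, macrophage markers and neutrophil markers mostly right.

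**Figure D5:**
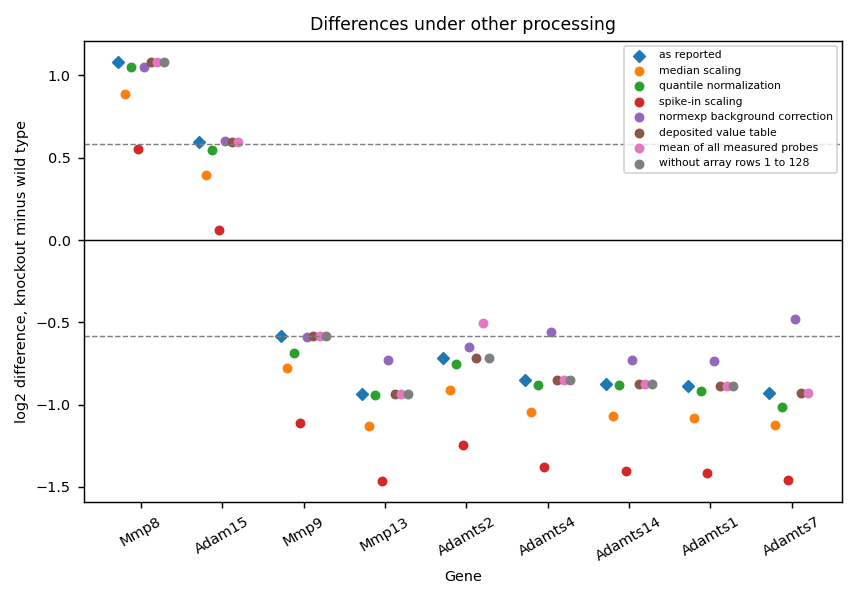
Log2 difference, knockout minus wild type (vertical axis), of the 8 called members and Mmp9 (horizontal axis), as reported (diamonds) and under other processing (coloured circles). Every value keeps its side of 0, and spike-in scaling is lowest for each gene. Adam15 falls short of the dashed 1.5-fold line under 3 settings. So do Mmp8 with spike-in scaling, Adamts2 with the mean of its probes, and Adamts4 and Adamts7 with normexp. Mmp9, short of the line as reported, is past it under 4 settings.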

How the data were processed

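Expression was measured in 2 samples, 1 array per genotype. Per the file headers, the deposited intensity is the spot signal after subtraction of background and spatial detrending (Feature Extraction software, 10.10.1.1); per the submitters' processing notes the version was 9.1, and which is right was not settled. The flags and errors are other values of the same software, per the file headers. The deposited value table is that intensity times 1 factor per array (median 1.54 for the knockout, 1.55 for wild type), chosen in a way not stated.

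Here each array was divided by its 75th percentile. Spots flagged as uneven or outliers were left out (172 on the knockout array and 157 on the wild type array) and none was saturated. Of 55649 probes, 27224 (48.9%) were named through a RefSeq table of GRCm38.p6, used for names, gene order and promoters; the files place probes on mm9. The brightest probe stood for its gene, and a further probe's value is given where it is above background. A probe above background on 1 array got a bound against the lowest signal well above background on the other. Some probes not flagged as above background exceeded that signal, so the bound is not strict. The files hold no mean signal, so normexp (limma 3.58.1, offset 50) used the median signal. The steps were tested on differences simulated for genes at or above the median level, with the wild type array's background flags used for both arrays. Dim genes, unequal background cutoffs and the bounds were not covered by it. Members, lists and tests were chosen with earlier results of these data known. Named genes were members measured on both arrays, members with a bound past 1.5-fold, a fixed set, and the extremes of each list; the members named only as dim, the 1-array members and some partners were named after their values were seen. The value of 1 partner gene is not reported here. The number of arrays limits the precision. Python 3.11.15, pandas 2.3.3 and numpy 2.4.6 were used.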

Additional observations from a re-analysis of the deposited data

How the results depend on the processing

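With 1 array a genotype, no replicate could be left out. No paired analysis was possible because each genotype has a single array and no test was made. Of 307 member differences under 10 alternatives, 267 moved by less than the scanner error. With spike-in scaling 34 moved, and 6 under other settings, and 0 of the called ones changed sign. These counts do not measure robustness. The deposited table, the dim, level and flag filters and the row filter leave a gene's own value nearly unchanged by construction, and moved 0. Median scaling shifts all genes alike and moved only Mmp9. The spike-in shift of 0.53 is below the 1.5-fold threshold (0.585), so it could not reverse a call. Median scaling gave 1 gene at least 1.5-fold higher and 13 lower, and 0 and 5 past 2-fold. Quantile normalization gave 1 higher past 1.5-fold and 1 lower past 2-fold. Spike-in scaling gave 0 higher and 19 lower past 1.5-fold and 0 and 11 past 2-fold, with medians of -1.38 (Adamts), -0.95 (Adamtsl), -0.94 (Mmp), -0.68 (Timp) and -0.44 (Adam). Of all measured genes, 39.9% were lower past 1.5-fold with spike-in scaling and 10.5% with median scaling. With no filter on dim probes, which adds genes near the background floor, all 83 members counted, 17 were higher past 1.5-fold, 9 higher and 2 lower past 2-fold, and the medians were -0.44 (Adamts) and 0.37 (Adamtsl). Of all named genes, 12.4% were higher past 1.5-fold without that filter. Only 12 members were at or above the median level, with 1 lower past 1.5-fold and a Timp median of -0.43. Without the top rows of the array, 1 was higher past 1.5-fold. Normexp moved the Adamts median to -0.56. The cause was not tested where the construction does not show it. Dim genes are limited by the background: genes above background on neither array had a median difference of -0.47. The negative control spots had a median signal of 4.24 on the knockout array and 6.06 on the wild type array before scaling. The part of this gap in that median difference was not tested.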

Other observations

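The promoter windows were also searched, on both strands, for the Runx core ACCACA and its reverse complement TGTGGT, since Runx2 is known to act on the Mmp13 promoter in osteoblasts. Of all windows 16.8% held it, as did 12 of the 59 windows of the members (20.3%). Among the genes measured on both arrays it stood 118 bases upstream of the start in Mmp13 (-0.93), 114 in Mmp14 (-0.50) and 72 in Adam15 (0.59), and in windows of Mmp23, Adam19 and Adam6b. The letters TATAAA or their reverse complement were in 13.6% of all windows and in 16 of the 59 (27.1%), among them those of Mmp13, Mmp12, Mmp8 and Adamts1. These are matches of letters in a short window and were not tied to any factor here.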
